A study of Mus musculus with 2 samples.

Results

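The 8 genes described here encode receptors of natural killer (NK) cells and were picked by symbol from the 32285 genes in the counts. They are the Ly49 genes Klra1, Klra3, Klra4, Klra7, Klra8 and Klra9, and the NK complex genes Klrb1c and Klrk1, all on chromosome 6. Single-cell RNA-seq of blood enriched for neutrophils with a magnetic kit gave 1 library for WT C57BL/6J mice and 1 for APP/PS1 mice. Each library pooled blood cells of 3 untreated females, 7 months old. The APP/PS1 strain carries human amyloid precursor protein and presenilin transgenes with familial Alzheimer's disease mutations, and its genetic background is not given in the sources used here. With 1 pooled library per genotype there was no replicate and no test was made. Intervals are at the 95% level and describe counting error alone, with nothing on how mice vary. NK cells were cells with at least 5 UMIs (unique molecular identifiers, each counted as 1 captured RNA molecule) of Ncr1, Klrb1c, Prf1 and Gzma together and none of Cd3e, Cd3g and Trac. There were 432 NK cells in WT and 757 in APP/PS1, of which 5 and 7 had gate sums of 5 to 9, and 4 and 8 further cells had sums of 3 or 4.

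NK cells kill infected or transformed cells when signals from activating receptors outweigh those from inhibitory receptors. Most inhibitory Ly49 receptors bind classical MHC class I on the target cell and recruit phosphatases, whereas activating Ly49 receptors signal through the adaptor Tyrobp (DAP12). Each NK cell transcribes only some of the Ly49 genes, so single NK cells of a mouse carry different combinations. The gene content and alleles of the Ly49 locus and of the Klrb1 genes vary between inbred mouse strains.

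The NK cells were 2.97% of the 14564 kept cells in WT (2.70% to 3.25%) and 4.98% of the 15208 kept cells in APP/PS1 (4.64% to 5.34%). Their median depth was 3632.5 UMIs in WT against 3376 in APP/PS1, with 1790658 and 2922619 UMIs in all, over which summed UMIs were scaled to CPM. The label of the samples was neutrophil, and NK cells were what the enrichment had left. The 3 gate genes other than Klrb1c, which helped choose the cells, summed to 17881 CPM in WT against 17506 CPM in APP/PS1. Most of this was Gzma (15594 and 15144 CPM). Of 26 genes of NK identity and maturity, these 3 among them, none lay past 2-fold. By counting intervals 6 were above 0 (Ncr1, Tbx21, S1pr5, Zeb2, Xcl1 and Cd226) and 5 below (Eomes, Il2rb, Gzma, Gzmb and Ccl5). Over 9291 genes with at least 20 UMIs the shares were 5.83% above and 6.08% below. Over 1426 genes with at least 500 UMIs they were 12.2% and 14.7%. Monocyte markers in the NK cells were lower in APP/PS1, at 991 CPM against 1685 CPM for 6 genes, and Ms4a6c, Fn1 and F13a1, named after their values were seen, lay past 2-fold. T cell markers summed to 465 and 414 CPM. Most of this was Trbc1 (280 and 246 CPM) and Trbc2 (177 and 150 CPM), both with intervals below 0. Cd3d was past 2-fold the other way, at 11 and 39 UMIs, and Cd3e, Cd3g and Trac were absent by the gate. B cell markers summed to 48.0 and 95.1 CPM, with Cd79a past 2-fold at 1 and 40 UMIs. Neutrophil markers summed to 18242 and 18175 CPM, most of it S100a8 and S100a9. By intervals 3 of these 8 genes were above 0 (Csf3r, Mmp9 and Cxcr2) and 1 below (Hdc). Red cell and platelet markers summed to 8786 and 6598 CPM. The 4 haemoglobin genes had intervals below 0. Of the platelet genes, Itga2b and Gp9 (log2 ratio 0.68 each) had intervals above 0, and those of Ppbp and Pf4 hold 0. Markers of other innate lymphoid cells summed to 108 and 91.0 CPM, with Tmem176b past 2-fold at 27 and 17 UMIs. The part of these cells in the results was not tested, but 157 WT and 300 APP/PS1 NK cells also passed another gate. The monocyte gate counts Ly6c2, which 59.0% of WT and 64.1% of APP/PS1 NK cells carried. It took in 136 WT and 262 APP/PS1 NK cells, and 18 and 13 with Ly6c2 left out. With all NK cells of another gate removed, every member kept the sign of its log2 ratio. Klra1 (-0.15, -0.41 to 0.11) and Klrk1 (0.05, -0.07 to 0.17) then lay within counting error. The share of cells with Klrk1 then differed by -0.894 percentage points (-4.54 to 3.22). With Ly6c2 left out of the monocyte gate, chosen after seeing the data, such removal left 378 WT and 682 APP/PS1 NK cells. In these Klra1 was at -0.28 (-0.50 to -0.06), an interval below 0, and Klrk1 at 0.07 (-0.03 to 0.17). The libraries shared 83 cell barcodes, 4 of them NK cells in APP/PS1 and 0 in WT.

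All 8 genes lie on the minus strand of chromosome 6 (GRCm38, GENCODE M21), within 1608 kb, and the 6 Ly49 genes within 343 kb. In order of position they are Klrb1c (128778485 to 128789215), Klrk1 (129610323 to 129623864), Klra4 (130043731 to 130067271), Klra8 (130115226 to 130129898), Klra9 (130178675 to 130193112), Klra7 (130218605 to 130233322), Klra3 (130323289 to 130337574) and Klra1 (130363917 to 130386874). Klrb1c overlaps the gene model Gm44511 on the same strand. The Ly49 transcripts are close copies of each other, and the counts came from the 3' end. The last 500 bases were aligned, and identities leave out gaps. Klra3 and Klra9 were 98.2% identical over 500 aligned bases, and Klra8 and Klra9 were 96.9% identical over 416. Klra1, Klra4 and Klra7 were about 91% identical in each pair, from 91.0% to 91.2%, over 392 to 490 aligned bases. Of the windows of 90 bases in the last 500, 8.52% in Klra3, 14.1% in Klra9 and 10.2% in Klra7 were also found in another gene of the annotation. None were in Klra1, Klra4, Klra8, Klrb1c or Klrk1. By exact windows of this length, counts of Klra3, Klra9 and Klra7 are less certain than those of the other members. The Klra7 windows were shared only with Klra13-ps, which is not in the counts. The paper gives a read length longer than these windows, so the measure is a rough one. How reads from an allele unlike the reference would be assigned among such copies was not tested.

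The promoters of Klra4, Klra8, Klra9 and Klra3 are shown because these were the 4 Ly49 genes that differed most between the libraries, the first 3 upwards and Klra3 downwards in APP/PS1. They are RefSeq sequences of GRCm38.p6 from 250 bases before to 50 bases after the start, on the minus strand, at chr6:130067222-130067521, chr6:130129849-130130148, chr6:130193063-130193362 and chr6:130337577-130337876. The capitals mark the longest run of bases that all 4 share, AAGCAATTTCCTCTTTT.
Klra4: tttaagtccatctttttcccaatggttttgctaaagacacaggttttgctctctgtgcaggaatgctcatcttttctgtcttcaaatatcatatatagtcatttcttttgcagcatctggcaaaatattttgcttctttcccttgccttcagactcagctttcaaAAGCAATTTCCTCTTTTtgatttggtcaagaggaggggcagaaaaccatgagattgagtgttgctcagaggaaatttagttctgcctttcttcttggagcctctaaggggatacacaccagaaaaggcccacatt
Klra8: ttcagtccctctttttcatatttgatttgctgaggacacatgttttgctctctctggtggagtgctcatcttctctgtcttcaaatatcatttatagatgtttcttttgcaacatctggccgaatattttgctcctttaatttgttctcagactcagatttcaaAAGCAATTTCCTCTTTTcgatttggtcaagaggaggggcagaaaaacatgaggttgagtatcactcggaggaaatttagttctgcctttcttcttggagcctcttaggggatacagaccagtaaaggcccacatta
Klra9: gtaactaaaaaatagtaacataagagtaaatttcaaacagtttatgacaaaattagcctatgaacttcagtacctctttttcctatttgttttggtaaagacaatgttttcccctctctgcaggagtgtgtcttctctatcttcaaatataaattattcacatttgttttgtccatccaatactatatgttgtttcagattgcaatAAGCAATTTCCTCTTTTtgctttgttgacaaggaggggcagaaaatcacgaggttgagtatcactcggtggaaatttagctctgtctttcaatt
Klra3: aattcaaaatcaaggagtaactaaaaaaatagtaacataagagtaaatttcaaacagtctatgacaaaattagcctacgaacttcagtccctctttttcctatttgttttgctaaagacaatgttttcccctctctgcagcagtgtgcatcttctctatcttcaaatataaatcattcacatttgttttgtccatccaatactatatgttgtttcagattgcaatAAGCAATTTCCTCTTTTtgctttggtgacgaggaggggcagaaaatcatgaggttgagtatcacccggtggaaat
The run of 17 bases starts 85 bases before the transcript start in Klra4, 86 in Klra8, 44 in Klra9 and 25 in Klra3. Searched on both strands, it was in the promoters of 7 of 27025 genes (0.0259%), the others being Klra6, Klra17 and Gm52487. The promoters of Klra1 and Klra7 did not hold these letters. The promoters of Klra3 and Klra9 were 96.4% identical over 281 aligned bases, and those of Klra4 and Klra8 86.6% identical over 299 aligned bases. Of the 6 Ly49 promoters compared, those of Klra3 and Klra9 were thus the most alike, and these genes differed in opposite directions between the libraries. For Klra7 and Klra8, 2 promoters were listed, and only the first of each was compared.

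Both activating Ly49 genes were higher in the NK cells of APP/PS1 mice. Klra8 encodes Ly49H, the receptor for a protein of mouse cytomegalovirus. It had 479 UMIs or 267 CPM in WT (244 to 293) and 1339 UMIs or 458 CPM in APP/PS1 (434 to 483), a log2 ratio of 0.78 (0.62 to 0.93). A UMI of Klra8 was found in 107 of 432 WT cells (24.8%, 20.8% to 29.1%) and in 314 of 757 APP/PS1 cells (41.5%, 37.9% to 45.1%). The difference of 16.7 percentage points (11.2 to 21.9) lay in the share of cells, as the mean over positive cells was 4.48 UMIs in WT and 4.26 in APP/PS1. Klra4 encodes Ly49D, which also pairs with Tyrobp. It had 612 UMIs or 342 CPM in WT and 1578 UMIs or 540 CPM in APP/PS1, a log2 ratio of 0.66 (0.52 to 0.80), and a UMI in 26.6% and 37.6% of cells. Positive cells held a mean of 5.32 and 5.54 UMIs of Klra4. Cells with 1 UMI only were 23.5% of the Klra4-positive cells in WT and 7.72% in APP/PS1. Klra4 and Klra8 together summed to 609 CPM in WT against 998 CPM in APP/PS1, a log2 ratio of 0.71 (0.61 to 0.81). At least 1 of them was detected in 57.5% of NK cells in APP/PS1, 19.5 percentage points more than in WT (13.6 to 25.1).

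The 4 inhibitory Ly49 genes differed in both directions. Klra9 encodes Ly49I and had the largest difference in share of all 8 members. It had 759 UMIs or 424 CPM in WT (394 to 455) and 2076 UMIs or 710 CPM in APP/PS1 (680 to 742), a log2 ratio of 0.74 (0.62 to 0.87). A UMI of Klra9 was found in 162 WT cells (37.5%, 32.9% to 42.3%) and in 489 APP/PS1 cells (64.6%, 61.1% to 68.0%), a difference of 27.1 percentage points (21.3 to 32.6). Klra9-positive cells held a mean of 4.69 UMIs in WT and 4.25 in APP/PS1. Klra3, which encodes Ly49C, went the other way. It had 644 UMIs or 360 CPM in WT (332 to 389) and 695 UMIs or 238 CPM in APP/PS1 (220 to 256), a log2 ratio of -0.60 (-0.75 to -0.44). Its share of cells was 36.8% in WT and 26.8% in APP/PS1, and its positive cells held a mean of 4.05 and 3.42 UMIs. Ly49C and Ly49I are close relatives in sequence and both are known to bind H2-K class I molecules.

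Klra7 and Klra1 were lower in APP/PS1 by less. Klra7 encodes Ly49G2 and had 652 UMIs or 364 CPM in WT and 862 UMIs or 295 CPM in APP/PS1, a log2 ratio of -0.30 (-0.45 to -0.15). Its share of cells was 44.2% in WT and 41.0% in APP/PS1, a difference of -3.26 percentage points (-9.10 to 2.55). No difference in share was thus detectable under this gate at this depth. Positive cells held a mean of 3.41 UMIs in WT and 2.78 in APP/PS1. With T cells excluded by Trac alone, the Klra7 share differed by -5.63 percentage points (-11.1 to -0.16), an interval below 0. Klra1 encodes Ly49A, a receptor for H2-D class I molecules, and had 326 UMIs or 182 CPM in WT and 440 UMIs or 151 CPM in APP/PS1, a log2 ratio of -0.27 (-0.48 to -0.06). Here the share was lower, at 14.3% in APP/PS1 against 22.7% in WT, while positive cells held a mean of 4.07 UMIs in APP/PS1 and 3.33 in WT. Summed over the 4 inhibitory genes the level was 1330 CPM in WT against 1394 CPM in APP/PS1, a log2 ratio of 0.07 (-0.01 to 0.14). That sum lay within counting error between the libraries.

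**Figure D1:**
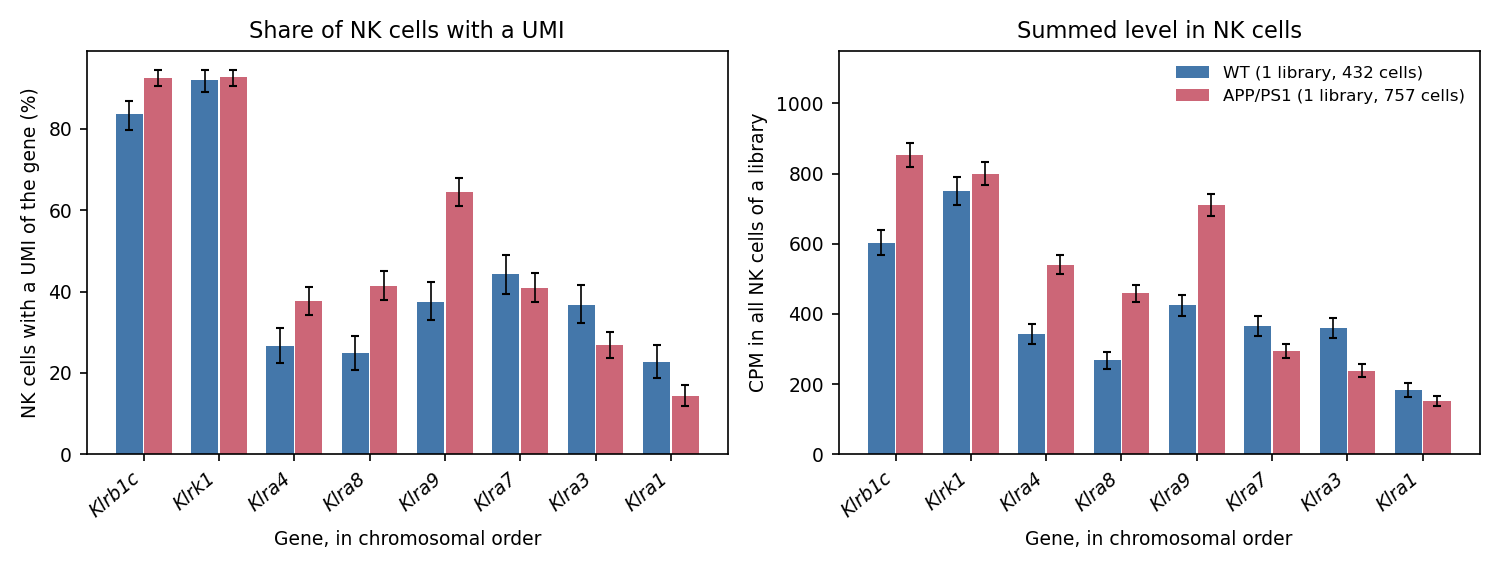
Share of NK cells with a UMI of each gene (left, %) and summed level (right, CPM) in the WT library (432 cells, blue) and the APP/PS1 library (757 cells, red), with genes in chromosomal order. Error bars are 95% exact counting intervals. Klra4, Klra8 and Klra9, which are next to each other among the members shown, were higher in APP/PS1 in both panels. The 3 genes to their right were lower in CPM, while in share the Klra7 intervals overlap.

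The NK complex genes Klrb1c and Klrk1 differed from each other. Klrb1c encodes NKR-P1C, the activating receptor seen by the NK1.1 antibody in C57BL/6 mice. It had 1078 UMIs or 602 CPM in WT (567 to 639) and 2493 UMIs or 853 CPM in APP/PS1 (820 to 887), a log2 ratio of 0.50 (0.40 to 0.61). A UMI of Klrb1c was found in 83.6% of WT and 92.6% of APP/PS1 NK cells, a difference of 9.04 percentage points (5.22 to 13.2). Klrb1c is part of the gate, and with Klrb1c left out of it the difference was 9.01 percentage points and the log2 ratio 0.50. Klrk1 encodes NKG2D, an activating receptor for stress-induced ligands that signals through Hcst (DAP10) and Tyrobp. It had 1343 UMIs or 750 CPM in WT (710 to 791) and 2334 UMIs or 799 CPM in APP/PS1 (767 to 832), a log2 ratio of 0.09 (-0.01 to 0.19). The share of NK cells with a UMI of Klrk1 was 92.1% and 92.7%, a difference of 0.605 percentage points (-2.41 to 3.96). No difference in Klrk1 was detectable in NK cells under this gate at this depth. With T cells excluded by Trac alone, the Klrk1 log2 ratio was 0.12 (0.02 to 0.21), an interval above 0.

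None of the 8 members lay past 2-fold in NK cells. Of 9291 genes with at least 20 UMIs, 160 (1.72%) were at least 2-fold higher in APP/PS1 and 128 (1.38%) at least 2-fold lower. Klra8 was past 2-fold, at a log2 ratio of 1.08, once NK cells passing another gate were removed. With Ly6c2 left out of the monocyte gate, that removal gave 0.67 (0.51 to 0.83) for Klra8. By counting intervals, 4 members lay above 0 and 3 below, against 5.83% and 6.08% of the 9291 genes. The members are deeply counted, so the genes with at least 500 UMIs are the closer background. Among these 1426 genes, 12.2% had an interval above 0 and 14.7% below, and 2.45% had a log2 ratio of 0.5 or more either way, which 5 of the 8 members had. The members were chosen with earlier results of these data known, so these shares give a scale and no test of the members. The median log2 ratio was 0.30 over the members and 0.01 over all 9291 genes. Shares of cells depend on depth, so each NK cell was also thinned to 1500 UMIs, which left out 2 WT and 16 APP/PS1 cells. The share of cells with a UMI was then 12.4 percentage points higher in APP/PS1 for Klra4, 14.7 for Klra8, 22.6 for Klra9 and 0.942 for Klrk1, and the differences for Klra1, Klra3 and Klra7 were -6.13, -7.57 and -3.89 percentage points. For Klrb1c the thinned shares were 58.8% in WT and 71.8% in APP/PS1.

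**Figure D2:**
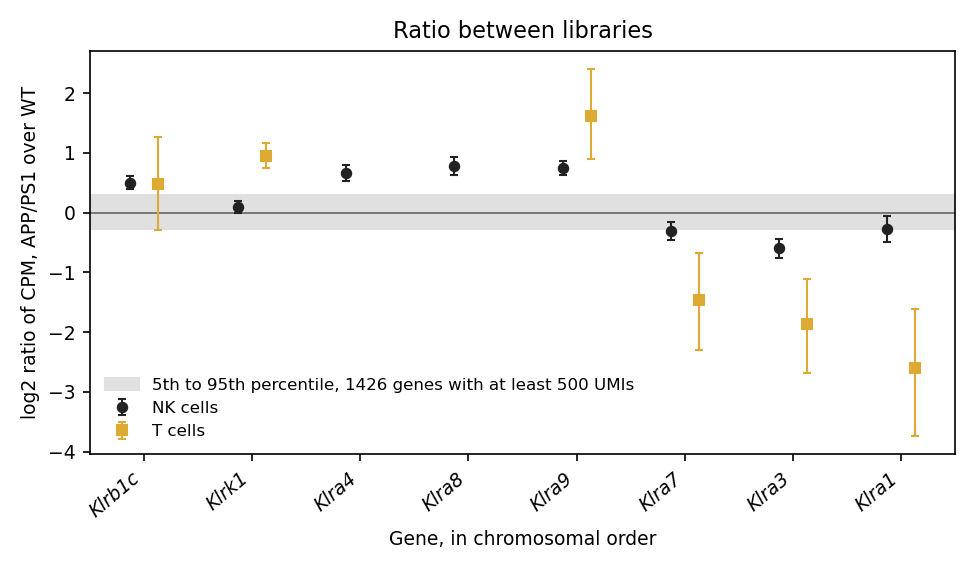
Log2 ratio of CPM, APP/PS1 over WT, of each member in NK cells (black circles) and in T cells (yellow squares, for members with at least 20 UMIs), in chromosomal order with 95% counting intervals. The grey band is the 5th to 95th percentile (-0.27 to 0.30) of 1426 genes with at least 500 UMIs in NK cells. In NK cells Klrb1c, Klra4, Klra8 and Klra9 lay above the band and Klra3 farthest below it.

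Among the 6 Ly49 members, those of each direction were neighbours in order of position. Klra4, Klra8 and Klra9 are the first 3 and were higher in APP/PS1, and Klra7, Klra3 and Klra1 are the next 3 and were lower. The order leaves out Ly49 genes that are not members. One of them, Klra10, had 2 UMIs in WT and 16 in APP/PS1, a log2 ratio of 2.29 (0.20 to 5.46), and was not placed. Between Klrb1c and Klra1 lie 21 other genes with at least 20 UMIs in NK cells. Of these, 6 had an interval above 0 and 1, Gabarapl1, below, against 542 and 565 of 9291 genes in all. A log2 ratio of 0.5 or more either way was found in 7 of the 21, against 1492 of the 9291 genes. Of these 7, Klri1 and Klra17 had intervals that hold 0. In the 2 Mb on either side, none of 9 genes before Klrb1c and none of 4 after Klra1 had a log2 ratio of 0.5 or more. Fkbp4, before Klrb1c, was just under that limit at 0.4997 (0.07 to 0.94). By intervals, 1 of the 9 lay above 0 and 1 below, and 0 of the 4 lay either way.

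Klra3 and Klra9 share most of their sequence and were examined together. Klra3 took up 45.9% of the UMIs of both in WT NK cells (43.3% to 48.6%) and 25.1% in APP/PS1 (23.5% to 26.7%). Their sum was 784 CPM in WT against 948 CPM in APP/PS1, a log2 ratio of 0.28 (0.18 to 0.37). In WT, 116 NK cells (26.9%) had Klra3 without Klra9, 119 (27.5%) had Klra9 without Klra3, 43 had both and 154 had neither. In APP/PS1, 93 cells (12.3%) had Klra3 alone, 379 (50.1%) had Klra9 alone, 110 had both and 175 had neither. Cells with Klra9 alone were thus the largest of the 4 classes in APP/PS1, while in WT they were about as many as cells with Klra3 alone.

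The split between Klra3 and Klra9 also differed in T cells (at least 3 UMIs of T cell genes, passing no other gate). In CD8 T cells there were 47 UMIs of Klra3 and 7 of Klra9 in WT (Klra3 87.0%, 75.1% to 94.6%) and 4 and 36 in APP/PS1 (10.0%, 2.79% to 23.7%). In WT the 47 UMIs of Klra3 came from 17 cells, with at most 6 in a cell, and in APP/PS1 the 36 UMIs of Klra9 came from 21 cells, with at most 5. The gate that separates monocytes used Ly6c2, which 59.0% of WT and 64.1% of APP/PS1 NK cells carried, and also removed T cells. With Ly6c2 left out of it there were 157 CD8 T cells in WT and 257 in APP/PS1 in place of 125 and 162, and the Klra3 share in them was 71.1% in WT and 11.4% in APP/PS1. Neutrophils held only 13 UMIs of the pair in WT and 17 in APP/PS1, 61.5% and 23.5% of them Klra3. Cells in the monocyte gate had Klra3 shares of 78.7% and 39.4%, and 80.0% and 76.0% without Ly6c2 in the gate, so no difference in monocytes held under both gates.

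**Figure D3:**
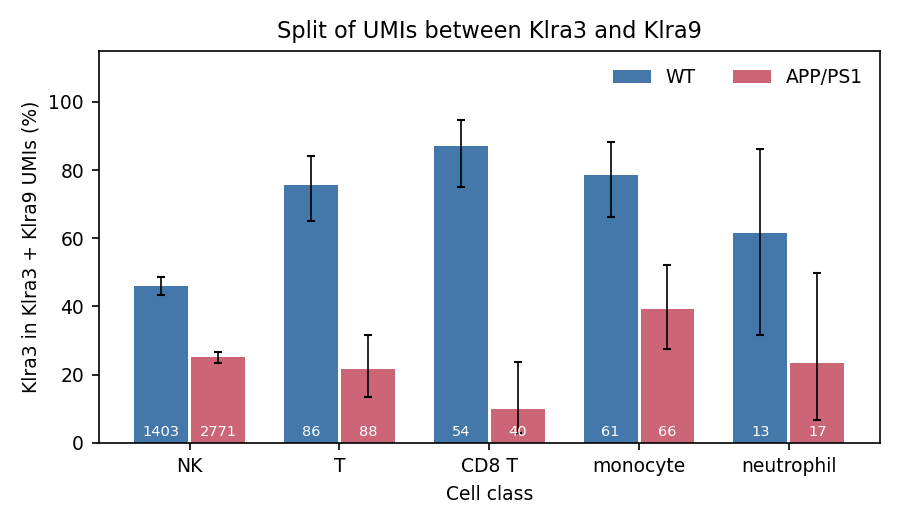
Share of Klra3 in the UMIs of Klra3 and Klra9 together (%) by cell class in the WT (blue) and APP/PS1 (red) libraries, with 95% exact binomial intervals and the number of UMIs at the foot of each bar. The share was lower in APP/PS1 in each class shown, with overlapping intervals in neutrophils. In monocytes it was 80.0% and 76.0% once Ly6c2 was left out of the gate. The CD8 T cells are also part of the T cells.

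Single NK cells carried several Ly49 genes at once, and more of them in APP/PS1. Of the 6 Ly49 members a mean of 1.93 was detected per NK cell in WT and 2.26 in APP/PS1. Exactly 1 was detected in 34.5% of WT cells (30.0% to 39.2%) and 22.1% of APP/PS1 cells (19.2% to 25.2%), and 3 or more in 28.9% and 42.3%, a difference of 13.3 percentage points (7.70 to 18.7). None was detected in 9.03% and 6.61%, a difference of -2.42 percentage points whose interval (-5.87 to 0.664) holds 0, and with T cells excluded by Trac alone the difference was 1.05. After thinning to 1500 UMIs the means were 1.44 and 1.77, cells with 3 or more made up 17.2% and 24.4%, and cells with none made up 22.3% and 12.8%. Cells with both an activating and an inhibitory Ly49 were 36.1% of WT NK cells (31.6% to 40.8%) and 54.8% of APP/PS1 NK cells (51.2% to 58.4%). Cells with an inhibitory Ly49 and neither Klra4 nor Klra8 were 53.0% in WT and 35.9% in APP/PS1. Cells with an activating Ly49 and no inhibitory member among the 4 counted were 8 of 432 in WT (1.85%, 0.803% to 3.62%). In APP/PS1 they were 20 of 757 (2.64%, 1.62% to 4.05%), and these intervals overlap. After thinning the shares were 3.26% (1.79% to 5.40%) and 8.91% (6.96% to 11.2%), with 66 such cells in APP/PS1 against 20 as sequenced. Thinning only removes UMIs, so cells with an inhibitory UMI as sequenced can enter this class by losing it.

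**Figure D4:**
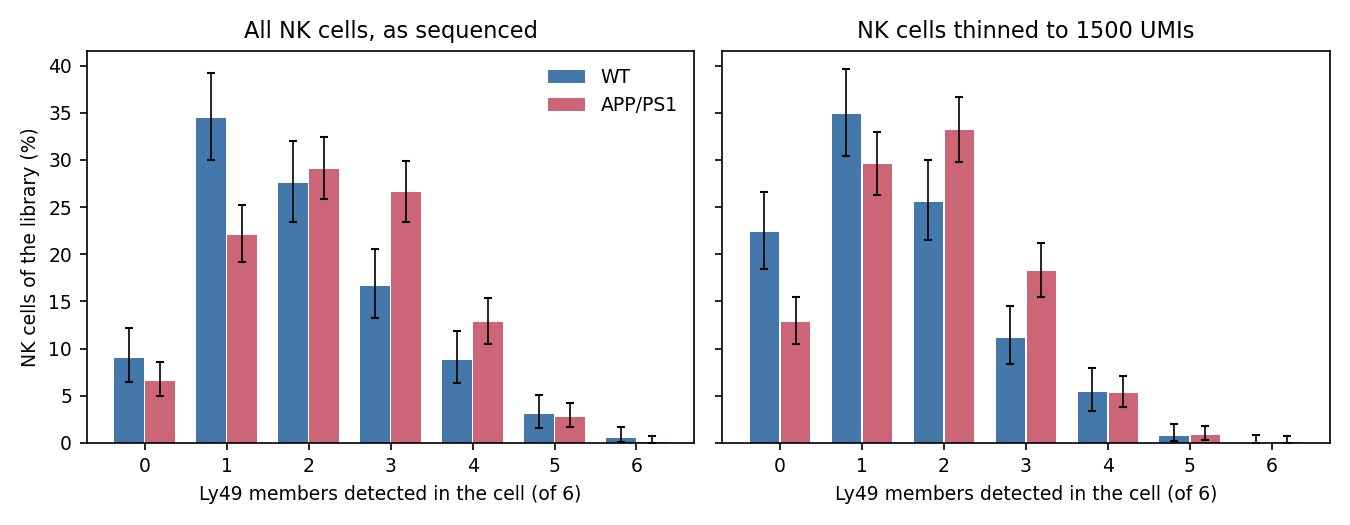
Share of NK cells (%) by the number of the 6 Ly49 members detected in the cell, in the WT (blue) and APP/PS1 (red) libraries, as sequenced (left) and with each cell thinned to 1500 UMIs (right). Error bars are 95% exact binomial intervals. As sequenced, APP/PS1 had fewer cells with 1 Ly49 member and more with 3, and after thinning the intervals for 1 member overlap (34.9% and 29.6%).

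Some members were found in the same cells more often than others. Klra4 was detected in 54.2% of Klra8-positive and 17.5% of Klra8-negative NK cells in WT, and in 52.2% and 27.3% in APP/PS1, so both activating genes were found together in both libraries. Klra8 went with Klra9 in WT, where it was detected in 45.7% of Klra9-positive cells (37.8% to 53.7%) and 12.2% of Klra9-negative cells (8.56% to 16.7%). In APP/PS1 the values were 42.7% (38.3% to 47.3%) and 39.2% (33.3% to 45.3%), and after thinning 32.4% and 34.3%. In WT the thinned share in Klra9-positive cells was 38.3% (29.6% to 47.6%). Of all NK cells, those with both genes made up 17.1% in WT and 27.6% in APP/PS1, and those with Klra8 alone of the pair 7.64% and 13.9%, so both kinds of cell were more frequent in APP/PS1. Klra3 was less frequent in Klra9-positive than in Klra9-negative cells, at 26.5% against 43.0% in WT and 22.5% against 34.7% in APP/PS1. Klra1 was less frequent in Klra3-positive cells in both libraries, at 14.5% against 27.5% in WT and 6.90% against 17.0% in APP/PS1. After thinning the WT intervals overlap (5.95% to 18.0% and 16.5% to 25.8%), and those of APP/PS1 do not. Klra9 was found in 41.8% of Klrb1c-positive and 15.5% of Klrb1c-negative cells in WT, and in 65.6% and 51.8% in APP/PS1. Detection also depends on a cell's depth, which these pairs share. Cells are not replicates, and these values describe the libraries.

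Outside NK and T cells the Ly49 members were rare. In T cells, the most frequent were Klra9 in APP/PS1, with a UMI in 11.3% of cells, and Klra3 in WT, in 8.97%. In 273 WT and 319 APP/PS1 B cells, which should lack them, each member had from 0 to 4 UMIs at a median depth of 4362 and 5555 UMIs per cell, and Klrk1 had 0 in both, which allows, from 3 counts and for counting error only, a share of cells with a UMI at this depth of up to 1.10% and 0.940%. Each member was found in at most 0.403% of neutrophils, the highest being Klrk1 in APP/PS1, against a median depth of 2598 UMIs in WT and 2784 in APP/PS1. Among monocytes Klrk1 stood out from the others, with 464 UMIs in WT (15.6 CPM, 6.73% of 4475 cells) and 319 in APP/PS1 (16.1 CPM, 6.10% of 3080 cells). Klrk1 made up 95.5% of the Klrk1 and Klrb1c UMIs in WT monocytes and 86.0% in APP/PS1 monocytes, against 55.5% and 48.4% in NK cells and 92.2% and 94.3% in T cells. UMIs of Cd3e, Cd3g or Trac were found in 3.32% of the Klrk1-positive monocytes in WT and 10.6% in APP/PS1. With Ly6c2 left out of the gate these shares were 1.02% and 1.20%, and Klrk1 was at 15.0 CPM (6.68% of cells) and 12.6 CPM (5.54% of cells).

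In T cells Klrk1 differed, where in NK cells without Cd3e, Cd3g and Trac its interval held 0. It had 294 UMIs or 291 CPM in 234 WT T cells and 607 UMIs or 565 CPM in 274 APP/PS1 T cells, a log2 ratio of 0.95 (0.75 to 1.16), and a UMI in 42.3% and 61.7% of cells. In CD8 T cells the values were 324 and 742 CPM, a log2 ratio of 1.19 (0.93 to 1.46), and 36.8% and 65.4% of cells. NKG2D is a costimulatory receptor on activated and memory CD8 T cells. Without Ly6c2 in the monocyte gate the log2 ratio of Klrk1 was 0.89 in T cells and 1.11 in CD8 T cells. Of the members with at least 20 UMIs in T cells, Klra9 was more than 2-fold higher in APP/PS1, at a log2 ratio of 1.63 (0.90 to 2.40), and Klra7, Klra3 and Klra1 were more than 2-fold lower, at -1.46, -1.87 and -2.60. In T cells 2.88% of 7736 genes were at least 2-fold higher and 2.17% at least 2-fold lower. These members had few UMIs, for Klra1 57 in 10 cells of WT, 35 of them in 1 cell, and 10 in 5 cells of APP/PS1. The share of T cells with Klra1 differed by -2.45 percentage points (-6.02 to 0.615), an interval that holds 0. Without Ly6c2 in the gate Klra1 was at a log2 ratio of -0.46 and Klra9 at 0.71. A difference between the NK and T cell ratios was not tested.

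**Figure D5:**
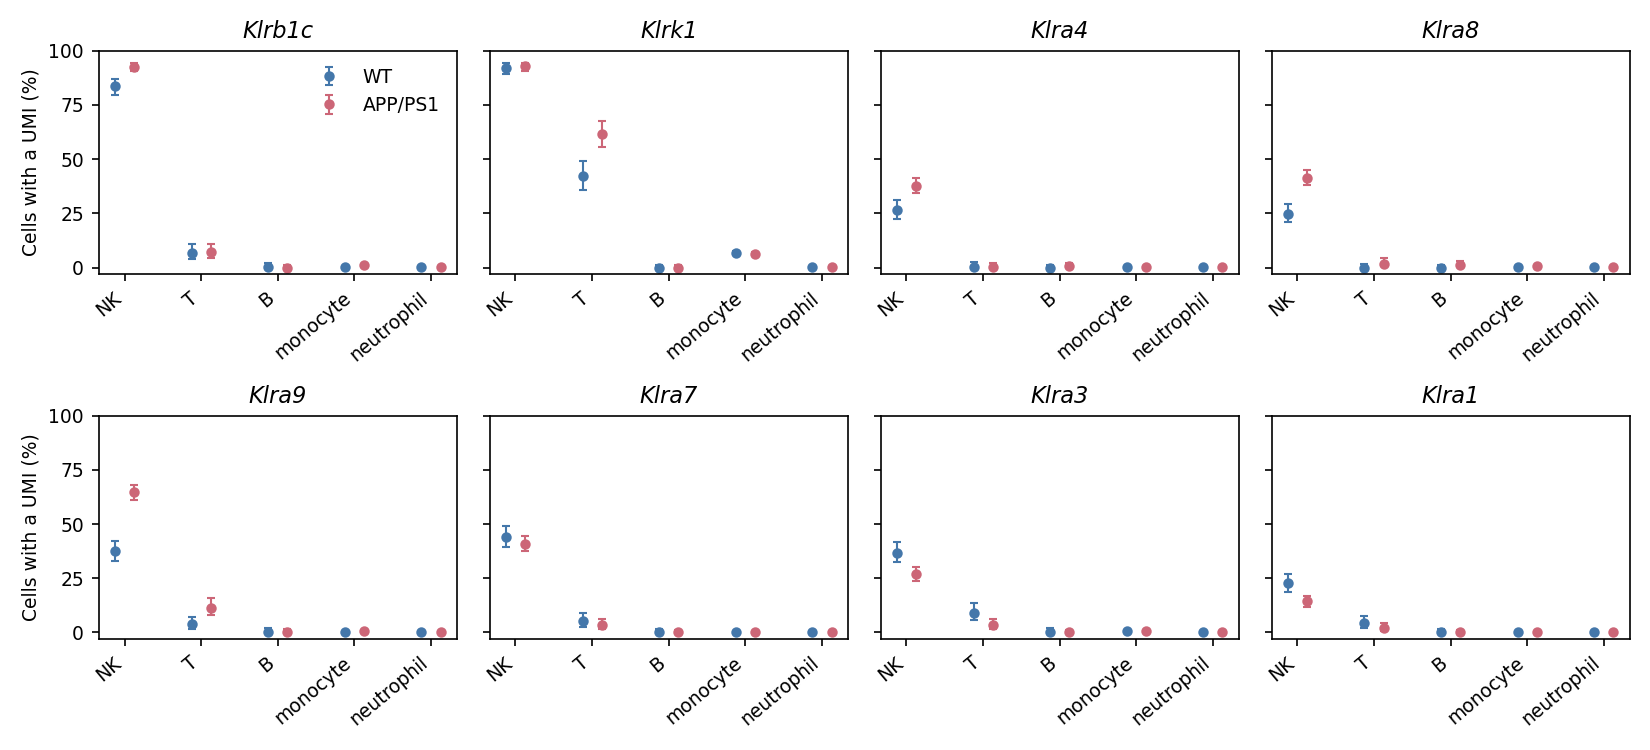
Share of cells (%) with a UMI of each member in NK cells, T cells, B cells, monocytes and neutrophils of the WT (blue) and APP/PS1 (red) libraries, with 95% exact binomial intervals. All 8 genes were highest in NK cells, and Klrk1 was also found in T cells and in 6.73% and 6.10% of monocytes.

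The NK complex holds other lectin receptor genes. Of 27 listed, 24 were in the counts and 18 had at least 20 UMIs in NK cells, and 0 of them lay past 2-fold. By counting intervals 5 were above 0 and 1 below, named here after their values were seen. Over all 9291 genes the shares were 5.83% above and 6.08% below, and 12.2% and 14.7% over genes with at least 500 UMIs. Klrb1b was at a log2 ratio of 0.52, Klrc1 at 0.33, Klrc2 at 0.44, Klre1 at 0.50 and Clec2d, the ligand of an inhibitory Klrb1 receptor, at 0.60, while Klrb1a was at -0.20. Klrd1 (CD94), the partner chain of the Klrc receptors, was at 0.01 (-0.08 to 0.10). Over the 18 genes the median log2 ratio was 0.02, with a range from -0.77 to 0.60. The adaptors Tyrobp and Hcst were near level. Tyrobp had 3570 CPM in WT against 3794 CPM in APP/PS1, a log2 ratio of 0.09 (0.04 to 0.13), and Hcst had 576 and 552 CPM, a log2 ratio of -0.06 (-0.18 to 0.05). None of 16 signalling genes lay past 2-fold. By counting intervals 3 of them were above 0 and 1 below. The latter was Cd247, at -0.48 (-0.71 to -0.24), with a UMI in 43.5% of WT and 33.0% of APP/PS1 NK cells. Of 11 genes of class I and stress-induced ligands, 8 had at least 20 UMIs in NK cells and none of these lay past 2-fold. By counting intervals 1 of the 8 was above 0 and 2 were below.

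Across 7 cell classes in both libraries (14 profiles), Klra9 was most like Klra6, another Ly49 gene, with a Pearson r of 0.994 over log2(CPM + 1). Klrb1c was most like the chemokine gene Xcl1 (r = 0.993), Klra4 most like Pald1 (r = 0.987) and Klra8 most like Rhpn1 (r = 0.976). Serpinb6b was nearest to Klra7 (r = 0.991), Klra1 (r = 0.985) and Klra3 (r = 0.973). Klrk1 was most like Ms4a4b (r = 0.978) and then Nkg7 (r = 0.949), which T cells also transcribe. The profiles of 1 library share its depth, and most of each r comes from the contrast of NK cells with the rest.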

How the data were processed

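Libraries were made with the 10x Genomics v3.0 kit. The authors deposited raw UMI counts without normalization, from Cell Ranger 5.0.0 on mm10 according to the submitters' processing notes. Kept cells lay between percentiles 5 and 95 of their library for genes and for UMIs and had at most 10% mitochondrial UMIs. Cells were put in classes by UMI gates on marker genes. Doublets were not called, and NK cells that passed another gate were removed in an alternative. UMIs were summed over the cells of a class and given as CPM of that class. CPM have exact Poisson intervals, shares Clopper-Pearson intervals, ratios exact conditional intervals, and differences of shares Newcombe intervals, all at the 95% level. With 1 library per group no test was run. In NK cell counts simulated for 9291 genes as Poisson draws, the true ratio lay inside 95.9% of the ratio intervals. The intervals assume the same Poisson counting, so this checks only their calculation. Clustering of UMIs within cells was not simulated, and the intervals leave it out.

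All 8 members are named. From the lists of other lectins, signalling and ligands, the rule named genes past 2-fold with at least 20 UMIs, at most 5 per list (there were none), Tyrobp and Hcst whatever their value, and the genes of the 3 highest r to each member. Other lectins, Cd247 and the cell type markers were named after their values were seen. The members and lists were chosen with earlier results of these data known. Alternatives were other gates, all deposited barcodes, removal of cells in another gate, edgeR 4.0.16 (TMM) library sizes, median-of-ratios factors, library sizes without abundant gene classes, thinned cells and the mean over cells. Python 3.11.15, scipy 1.17.1, Biopython 1.88 and R 4.3.3 were used.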

Additional observations from a re-analysis of the deposited data

Results flagged for a closer look

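Klrb1c, the gene of the NK1.1 receptor, differed in opposite directions in NK cells and CD8 T cells. In NK cells its log2 ratio, APP/PS1 over WT, was 0.50, and in CD8 T cells it was -1.66 (-3.29 to -0.25). In CD8 T cells this rested on 17 UMIs in 12 of 125 WT cells and 6 UMIs in 4 of 162 APP/PS1 cells. Over all T cells, CD8 T cells among them, the log2 ratio was 0.47 (-0.30 to 1.27), an interval that holds 0. The difference between the cell classes was not tested, as there is 1 library per genotype.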

How the results depend on the processing

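Of 231 recomputed values, 213 stayed within the interval or limit of the reported value, 18 lay outside it, and none of the called values changed sign. Removing NK cells that passed another gate gave a log2 ratio of 1.08 for Klra8, past 2-fold. With Ly6c2 left out of the monocyte gate, the same removal gave 0.67 (0.51 to 0.83) for Klra8. All deposited barcodes gave 0.59 for Klra9, and thinned cells gave -0.40 for Klra3. With T cells excluded by Trac alone, the Klrb1c share differed by 4.69 percentage points and the share of NK cells with no Ly49 member by 1.05 (-2.78 to 4.60). After thinning that share differed by -9.51 percentage points and the share with 3 or more by 7.22 percentage points. Genes at least 2-fold higher and lower numbered 249 and 223 with all barcodes, 2017 and 1499 with no minimum count, and 45 and 30 with at least 50 UMIs. With Ly6c2 left out of the monocyte gate, chosen after seeing the data, the T cell log2 ratios were -0.46 for Klra1, 0.71 for Klra9 and -0.39 for Klrb1c (-0.88 to 0.10). The Klra3 share of Klra3 and Klra9 UMIs then differed by -33.5 percentage points in T cells and -59.7 in CD8 T cells. With Ly6c2 in the gate Klrb1c was at 0.47 (-0.30 to 1.27) in T cells, so its sign changed with the gate. Both intervals of Klrb1c hold 0. The causes were not tested. No paired analysis was possible because each group has 1 library. Depth limits what can be said of members outside NK cells, where counts were low.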
